A study of Homo sapiens with 10 samples.

Results

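The 55 genes described here encode the proteins that detect, signal and repair DNA double-strand breaks: the damage kinases, the sensors and nucleases at broken ends, the homologous recombination and Fanconi anaemia proteins, and the end joining machinery. They were chosen by name, and all 55 were found among the 22003 features of the count table. All 55 also passed the filter on low counts, as members of 14799 features tested.

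A double-strand break is first bound by the MRN complex (MRE11, RAD50 and NBN) or by the Ku heterodimer (XRCC5 and XRCC6). The kinases ATM, ATR and DNA-PK then phosphorylate the histone variant H2AX, the checkpoint kinases and many repair proteins. Ku and DNA-PK lead to end joining through XRCC4 and LIG4 at any stage of the cell cycle, whereas resection of the ends commits a break to homologous recombination, which uses the sister chromatid in S and G2 phase. Most of these steps run on proteins that are already present and are switched by phosphorylation, ubiquitin and relocation, so transcript levels describe the supply of the machinery and not its activity.

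HaCaT cells, human skin keratinocytes that became immortal spontaneously in culture, were the source of all RNA; they were labelled wild type and grown in medium with fetal bovine serum. All cells were given either LBP, a polysaccharide-glycoprotein from Lycium barbarum (goji), or its vehicle for 24 h. Without radiation there were 2 vehicle and 2 LBP libraries, and after 12 Gy there were 3 irradiated vehicle and 3 irradiated LBP libraries, with RNA taken 3 h later. It is a single line at 1 dose and 1 time, so the values describe an early point after a high dose in immortal cells. Whether the repeats were separate cultures is not stated, so the p-values rest on a spread between samples that may be technical.

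The libraries held 31830506 to 62986831 counts, and the lowest count of any of the 55 genes in a library was 431 (EME1). The labels give the tissue as mucosa. All 11 keratinocyte markers had a mean of at least 1 CPM (counts scaled to the library total, with TMM factors), with summed levels of 13054 to 13401 CPM in vehicle, 14963 to 15165 in LBP, 12494 to 13932 in irradiated vehicle and 14010 to 15141 in irradiated LBP libraries. Of 8 markers of simple or mucosal epithelium 7 did, with a summed level of 6543 to 8517 CPM over all libraries. Fibroblast, melanocyte, endothelial and leukocyte lists summed to at most 7.29, 9.58, 3.61 and 19.8 CPM, and the defining markers DCN, TYR and PECAM1 had no count in any library. The part of the marker levels in the results below was not tested. In bulk RNA, fewer cells of a kind and less RNA per cell cannot be told apart.

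Levels of the repair genes differed far more between genes than between samples. On the FPKM scale (counts scaled to transcript length and library size, as deposited), which can be compared between genes, the 55 had a median of 9.63 over the libraries, against 5.37 for all features tested. The most abundant transcripts were of end joining. XRCC6 and XRCC5, the Ku subunits that encircle broken ends, averaged 255 and 123 FPKM, the former at percentile 98.6 of features tested, and PRKDC, the catalytic subunit of DNA-PK, averaged 37.3 FPKM. Their partners were far less abundant: XRCC4, the scaffold of the ligase, averaged 13.3 FPKM, LIG4, the ligase itself, 3.56, and DCLRE1C, the Artemis nuclease that opens hairpins and trims ends, 3.48.

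H2AX (79.5 FPKM) and PARP1 (74.8 FPKM), a sensor of breaks that makes poly(ADP-ribose), followed Ku. They were followed by UBE2T, the ubiquitin-conjugating enzyme of the Fanconi pathway, at 45.8 FPKM, and FANCI, which that enzyme's pathway monoubiquitinates together with FANCD2, at 45.7. FANCD2 itself averaged 8.31 FPKM, and FANCL, the ubiquitin ligase, 8.18. Among the kinases CHEK1 (32.5 FPKM) was above CHEK2 (11.7), ATR (8.67) and ATM (3.08). The 11 genes of homologous recombination had a median of 5.23 FPKM, with BRCA1 at 15.0, BRCA2 at 3.28 and PALB2, the bridge between the BRCA proteins, at 5.15. The lowest of the 55 were SLX4, the scaffold of structure-specific nucleases (1.85 FPKM), BRIP1, a helicase that binds BRCA1 (2.41), and FANCM, a DNA translocase (2.54).

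**Figure D1:**
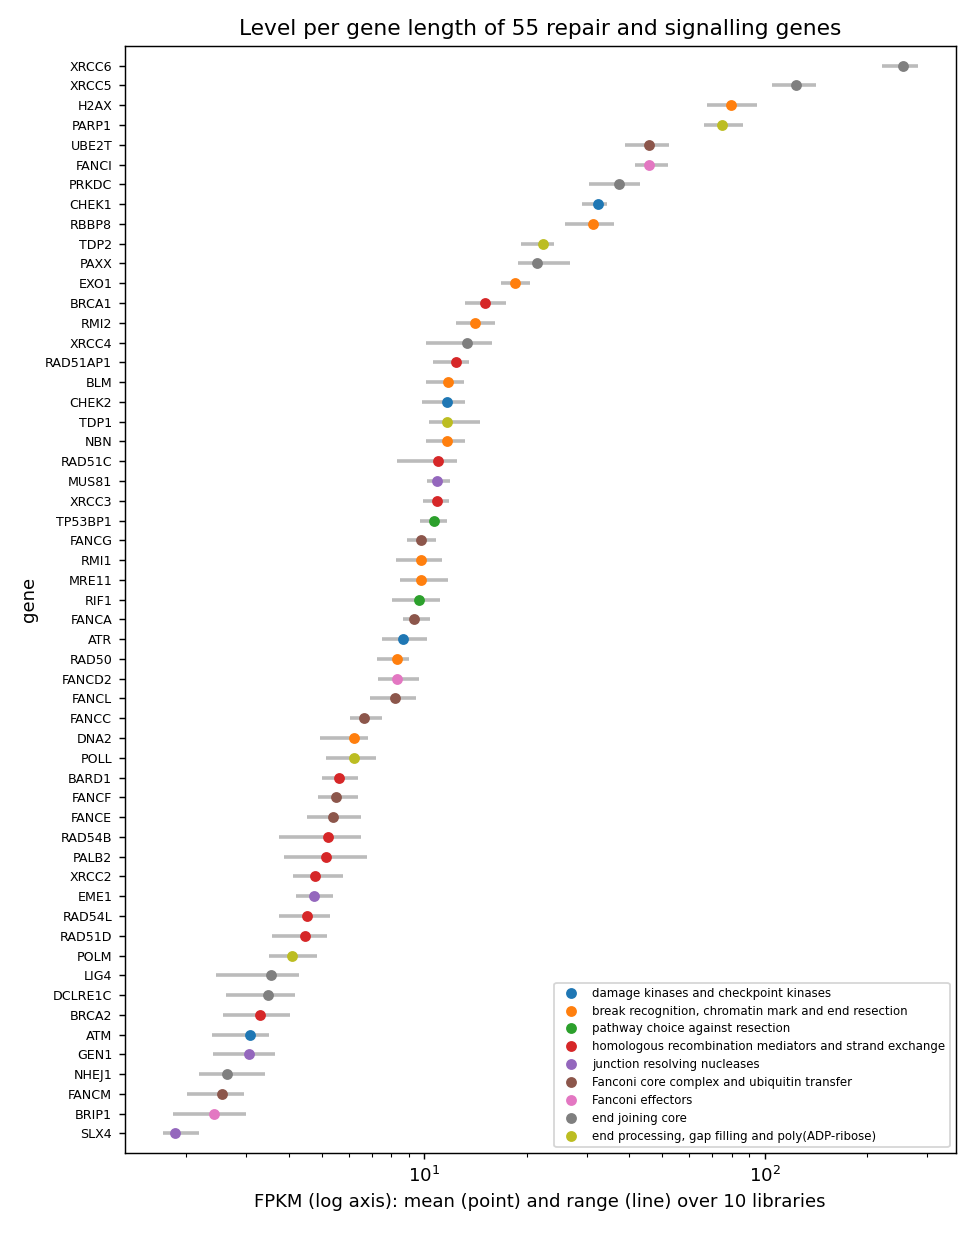
Level of each of the 55 genes on a log FPKM axis, ordered by level and coloured by role, with a point at the mean and a line over the range of the 10 libraries. The spread between genes, from 1.85 FPKM for SLX4 to 255 for XRCC6, is much wider than the spread of any gene over the 10 libraries.

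Promoter sequence was examined because many of these genes are described in textbooks as E2F targets. RefSeq promoters on GRCh38.p14 (250 bases before to 50 after the start) were matched for 48 of the 55 genes, RAD54B not among them. The E2F core words searched, on either strand, were TTCCCGC together with its variant TTGGCGC, then the variant TTCGCGC and last the variant TTGCCGC. Any of them occurred in 21 of these (43.8%), against 13.1% of all 27305 promoters, and in 10 of 15 E2F or S phase members (66.7%) against 11 of 33 others (33.3%). The cell cycle homology word TTTGAA, on either strand, occurred in 7 of 48 (14.6%) and in 15.4% of all promoters. A match is a description of letters and shows no binding. The first 3 stretches are the 100 bases before the start of DCLRE1C, UBE2T and XRCC4, which changed with LBP in irradiated cells. These stretches hold none of the words, though the UBE2T promoter has TTTGAA further out, at base -153 from the start. They are shown beside BLM, EME1 and RAD54L, which were picked because they are E2F or S phase members with a word in that stretch, in capitals. The contrast in words between these sets was thus fixed by the choice, and UBE2T is itself an E2F or S phase member. All read 5′ to 3′ on the gene's strand.
DCLRE1C, chr10:14954433-14954532, minus strand: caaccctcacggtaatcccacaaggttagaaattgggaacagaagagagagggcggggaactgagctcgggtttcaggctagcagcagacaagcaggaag
UBE2T, chr1:202341981-202342080, minus strand: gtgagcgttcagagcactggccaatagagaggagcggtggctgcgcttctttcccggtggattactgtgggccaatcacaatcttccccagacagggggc
XRCC4, chr5:83077398-83077497, plus strand: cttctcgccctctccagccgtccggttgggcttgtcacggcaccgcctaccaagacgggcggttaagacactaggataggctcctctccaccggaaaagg
BLM, chr15:90717227-90717326, plus strand: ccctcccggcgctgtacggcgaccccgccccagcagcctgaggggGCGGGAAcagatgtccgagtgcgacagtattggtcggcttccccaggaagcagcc
EME1, chr17:50373120-50373219, plus strand: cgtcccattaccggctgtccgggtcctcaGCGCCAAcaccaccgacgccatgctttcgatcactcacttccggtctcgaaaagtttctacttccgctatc
RAD54L, chr1:46247588-46247687, plus strand: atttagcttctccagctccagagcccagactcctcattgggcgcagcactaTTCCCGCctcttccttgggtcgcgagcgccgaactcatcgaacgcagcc

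These genes varied little, both within groups and over the 10 libraries. The median standard deviation of log2 values within groups was 0.11 for the 55 genes and 0.13 for all features tested, which were not matched for level. The ratio of the highest to the lowest of the 10 libraries had a median of 1.32, against 1.41 for all features, and it was lowest for FANCA and XRCC3 (1.14 each) and highest for LIG4 (1.67), RAD54B (1.66) and PALB2 (1.64).

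Radiation of vehicle-treated cells changed 0 of the 55 genes at an adjusted p under 0.05 (edgeR quasi-likelihood test with Benjamini-Hochberg adjustment over all 14799 features). Over all features 0.439% were called, 5 higher and 60 lower, so the absence of calls among 55 genes is near the background. At an unadjusted p under 0.05 there were 5 of the 55 genes (6.91% of all features), and DESeq2 called 0. The median log2 difference was -0.04 over the 55 genes and 0.00 over all features, and no gene differed by more than 0.24 in either direction. The 95% interval of all 55 lay within a 1.5-fold change either way, as it did for 70.7% of all features. Here and below, such shares are not matched for level, which had a median of 9.63 FPKM over the 55 and 5.37 over all features.

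The kinases showed how small the differences were. ATM was at 46.2 and 44.4 CPM in the vehicle libraries and at 45.1, 44.8 and 35.0 CPM after radiation. The ranges overlap, and the last library alone is well below the rest. ATR was at 81.1 and 89.2 CPM against 74.0, 79.5 and 73.0 CPM, so that its groups did not overlap, with a log2 difference of -0.17 ± 0.10 (SE; adjusted p = 0.809, edgeR). CHEK1, the kinase downstream of ATR, was at 98.8 and 101.9 CPM against 95.2, 103.7 and 96.4, and CHEK2, that downstream of ATM, at 24.3 and 26.5 against 22.0, 23.0 and 24.7; both overlap.

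H2AX, whose phosphorylated form marks chromatin around breaks, was lower in every irradiated library. Its level was 152.2 and 163.5 CPM in vehicle, 158.9 and 179.9 CPM in LBP, 137.8, 128.5 and 146.4 CPM in irradiated vehicle and 131.5, 137.4 and 124.6 CPM in irradiated LBP cells. All 6 irradiated libraries thus lie below all 4 others. Here and below, the share of all features that separate in such a way across all 10 libraries was not counted. Such patterns are therefore a description only. The log2 difference with radiation was -0.20 ± 0.08 in vehicle cells (adjusted p = 0.671) and -0.37 ± 0.08 in LBP cells (adjusted p = 0.140), and -0.28 ± 0.06 averaged over the pretreatments (adjusted p = 0.0520), so edgeR did not call it. DESeq2 called it in LBP cells (adjusted p = 0.00688) and in the average (adjusted p = 0.000959). In the average it was called in 5 of 15 alternative settings, with adjusted p from 0.000959 to 0.333; without LBP replicate 1 it was 0.0499 and without irradiated LBP replicate 2 it was 0.0353. H2AX lies at chr11:119093854-119095467 on the minus strand (GRCh38, GENCODE v29) and is a histone gene whose transcripts exist in polyadenylated and non-polyadenylated forms. How the libraries selected RNA is not given in the sources used here.

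In LBP-treated cells radiation likewise changed 0 of the 55 genes by edgeR (0.142% of all features called, 2 higher and 19 lower), while 7 had an unadjusted p under 0.05 (13.5% of all features) and DESeq2 called 1, H2AX. The median log2 difference was -0.03 over the 55 and 0.00 over all features, and 53 of the 55 intervals lay within 1.5-fold (68.4% of all features). The exceptions were PALB2 and PAXX, a small partner of Ku. PALB2 was at 23.8 and 18.3 CPM in LBP and at 25.6, 30.0 and 25.5 CPM in irradiated LBP libraries, a log2 difference of 0.36 ± 0.13 (adjusted p = 0.293, edgeR). The irradiated libraries are all higher, and the pair of LBP libraries stand far apart. FANCE, a subunit of the Fanconi core complex, was next, at 14.6 and 13.9 against 15.3, 18.7 and 18.3 CPM (0.29 ± 0.11, adjusted p = 0.300), again without overlap. PAXX was at 18.9 and 25.7 CPM in LBP and at 18.4, 17.6 and 18.5 CPM in irradiated LBP libraries. XRCC6 was at 710 and 764 CPM against 642, 666 and 613 CPM, all lower (-0.20 ± 0.07, adjusted p = 0.296).

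With radiation, libraries of the compared groups did not overlap for 21 of the 55 genes in vehicle cells (6 higher, 15 lower; 27.7% of all features did not overlap) and for 18 in LBP cells (7 higher, 11 lower; 28.0%). The 15 lower ones in vehicle cells included the nuclease scaffold SLX4, the nuclease MUS81 and TDP1, which removes topoisomerase from DNA ends, at 42.1 and 38.6 CPM in vehicle and 34.7, 33.7 and 36.2 CPM in irradiated vehicle libraries. The 6 higher ones were BARD1, BRIP1, EXO1, RAD51D, RMI1 and XRCC2, and RMI1, part of the BLM dissolvasome, was the highest of the 55, at 34.5 and 34.4 CPM in vehicle and 39.9, 39.2 and 41.9 CPM in irradiated vehicle libraries (0.23 ± 0.10, adjusted p = 0.692, edgeR). XRCC2, a factor of strand exchange, was next, at 26.2 and 25.1 against 28.8, 31.9 and 26.9 CPM (0.19 ± 0.10, adjusted p = 0.762). SLX4 was among the lowest, at 18.1 and 15.2 against 13.9, 14.6 and 14.4 CPM (-0.22 ± 0.10, adjusted p = 0.710). PARP1 was at 389 and 360 against 351, 335 and 343 CPM (-0.13 ± 0.07, adjusted p = 0.775). The 2 radiation comparisons use separate libraries. H2AX and XRCC6 were lower without overlap in both, and BARD1, the partner of BRCA1, was higher in both. BARD1 was at 29.2 and 30.1 against 31.1, 32.7 and 35.4 CPM and at 31.1 and 28.00 against 32.9, 33.8 and 33.5 CPM. XRCC6 nearly touched in vehicle cells, with 748.4 CPM in vehicle replicate 2 and 747.2 CPM in irradiated vehicle replicate 3. The share of all features without overlap in both comparisons was not counted, so these genes are a description only.

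For scale, 20 genes of G2 phase and mitosis in the same libraries had a median log2 difference of -0.66 with radiation in vehicle cells, where 15 fell, and of -0.44 in LBP cells, where 5 fell. The 20 replication genes listed had medians of -0.00 and -0.07 with 0 called, 3 and 0 at an unadjusted p under 0.05. Of the 55 repair genes, 19 are textbook E2F or S phase transcripts, among them BRCA1, BLM, EXO1, CHEK1, RAD54L and FANCD2. Those 19 had medians of 0.01 and -0.04, and the other 36 had medians of -0.07 and -0.03, nearer to the medians of the replication genes than to those of the mitotic ones. The part of cell cycle position in any single gene's value was not tested.

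**Figure D2:**
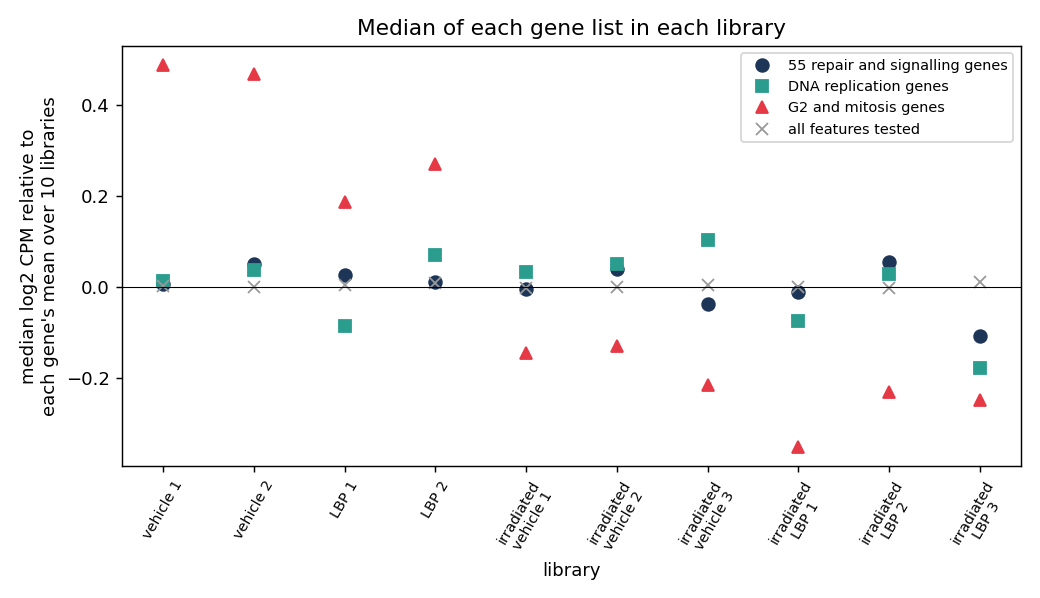
Median log2 deviation from the gene's mean over the libraries, for each of the 10 libraries, of the 55 repair genes, 20 replication genes, 20 genes of G2 phase and mitosis and all features tested. Of these 4 sets only the mitotic genes separate the irradiated libraries (-0.35 to -0.13) from the others (0.19 to 0.49); irradiated LBP replicate 3 is the lowest library for the repair genes (-0.11).

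LBP without radiation changed 0 of the 55 genes (edgeR; 0.804% of all features called, 80 higher and 39 lower). DESeq2 called 0 as well, and 1 gene, PRKDC, had an unadjusted p under 0.05 (13.5% of all features). The median log2 difference was -0.01 against 0.01 for all features, no gene differed by more than 0.23, and all 55 intervals lay within 1.5-fold (64.0% of all features). PRKDC was at 656.6 and 573.3 CPM in vehicle and at 569.2 and 488.1 CPM in LBP libraries, which do not overlap but nearly touch (-0.22 ± 0.10, adjusted p = 0.351). RAD54L, the other of the 2 lowest, was at 18.2 and 14.9 against 13.5 and 14.8 CPM (-0.23 ± 0.12, adjusted p = 0.448). The 2 highest were PAXX, at 17.3 and 21.2 against 18.9 and 25.7 CPM (0.21 ± 0.16, adjusted p = 0.608), and BRCA2, at 40.5 and 39.4 against 49.7 and 41.1 CPM (0.18 ± 0.14, adjusted p = 0.605). The PAXX libraries overlap and the BRCA2 libraries do not. In all, 17 of the 55 did not overlap, 4 higher and 13 lower, beside 45.6% of all features.

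In irradiated cells LBP changed 4 of the 55 genes: RAD54B, XRCC4 and UBE2T fell and DCLRE1C rose. Over all features LBP changed 4.36% in this comparison, 413 higher (2.79%) and 232 lower (1.57%), so 4 of 55 is near the background. At an unadjusted p under 0.05 there were 9 of the 55 (21.7% of all features). The median log2 difference of the 55 was 0.01, the same as over all features to 2 decimals, and 53 intervals lay within 1.5-fold (69.0% of all features), RAD54B and XRCC4 being the exceptions. In all 11 genes did not overlap, 5 higher and 6 lower, beside 27.5% of all features. All 4 changed genes are among these 11, which is no separate support, since calls and overlap rest on the same libraries.

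XRCC4 and DCLRE1C, both of end joining, moved in opposite directions. XRCC4 was at 25.3, 29.03 and 29.5 CPM in irradiated vehicle and at 19.2, 22.4 and 20.2 CPM in irradiated LBP libraries, with 24.3 and 28.4 CPM in vehicle and 25.4 and 25.5 CPM in LBP libraries. The 3 irradiated LBP libraries are below all 7 others. The log2 difference was -0.44 ± 0.09 (adjusted p = 0.0243, edgeR). DCLRE1C was at 16.7, 17.2 and 13.6 CPM in irradiated vehicle and at 20.6, 20.3 and 20.2 CPM in irradiated LBP libraries, with 19.1 and 18.2 CPM in vehicle and 20.1 and 19.0 CPM in LBP libraries. Here the irradiated vehicle group is the one that stands apart and lies below all 7 other libraries. The log2 difference was 0.37 ± 0.09 (adjusted p = 0.0486, edgeR).

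The rest of the end joining core did not pass the test. XRCC6 was at 703.1, 656.0 and 747.2 CPM in irradiated vehicle and 642.4, 666.0 and 612.6 CPM in irradiated LBP libraries (-0.13 ± 0.07, adjusted p = 0.268), and XRCC5 at 476.9, 487.2 and 481.8 against 438.4, 485.1 and 409.7 CPM (-0.12 ± 0.08, adjusted p = 0.396). Both pairs of groups overlap. LIG4, which is stable only when bound to XRCC4, was at 19.2, 18.8 and 16.2 against 19.1, 16.6 and 11.5 CPM (-0.20 ± 0.15, adjusted p = 0.488), with 1 low library in the last group.

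RAD54B, a motor protein of strand exchange, was at 22.1, 20.1 and 18.3 CPM in irradiated vehicle and at 13.3, 14.4 and 15.7 CPM in irradiated LBP libraries, beside 19.1 and 20.8 CPM in vehicle and 16.6 and 19.0 CPM in LBP libraries. The irradiated LBP libraries are the lowest of the 10. The log2 difference was -0.48 ± 0.10 (adjusted p = 0.0232, edgeR), the most negative of the 55. RAD54B (chr8:94371960-94475109, minus strand) shares 59% of its exon bases in GENCODE v29 with FSBP on the same strand, so reads could be divided between them in counting. FSBP averaged 2.28 ± 0.09 CPM (SD, n = 3) in irradiated vehicle and 3.10 ± 0.32 CPM (SD, n = 3) in irradiated LBP cells. The sum of both genes was 20.7 to 24.4 CPM in irradiated vehicle and 16.5 to 19.0 CPM in irradiated LBP libraries, without overlap. The counting tool is not given, so the sum cannot show how reads from the shared bases were assigned, and it was not tested.

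UBE2T was at 48.1, 49.4 and 52.5 CPM in irradiated vehicle and at 39.8, 38.7 and 41.8 CPM in irradiated LBP libraries, against 46.6 and 48.2 CPM in vehicle and 45.7 and 49.5 CPM in LBP libraries. The irradiated LBP group is again below all 7 others. The log2 difference was -0.32 ± 0.07 (adjusted p = 0.0253, edgeR). Its partners in the Fanconi pathway did not pass: FANCD2 was at 45.6, 44.7 and 45.6 against 53.0, 52.6 and 42.9 CPM (0.13 ± 0.08, adjusted p = 0.406), and FANCI at 212.1, 214.2 and 208.3 against 236.9, 242.8 and 202.0 CPM (0.10 ± 0.07, adjusted p = 0.424). In both, irradiated LBP replicate 3 is the lowest of these 6 libraries and the rest of its group are the highest.

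**Figure D3:**
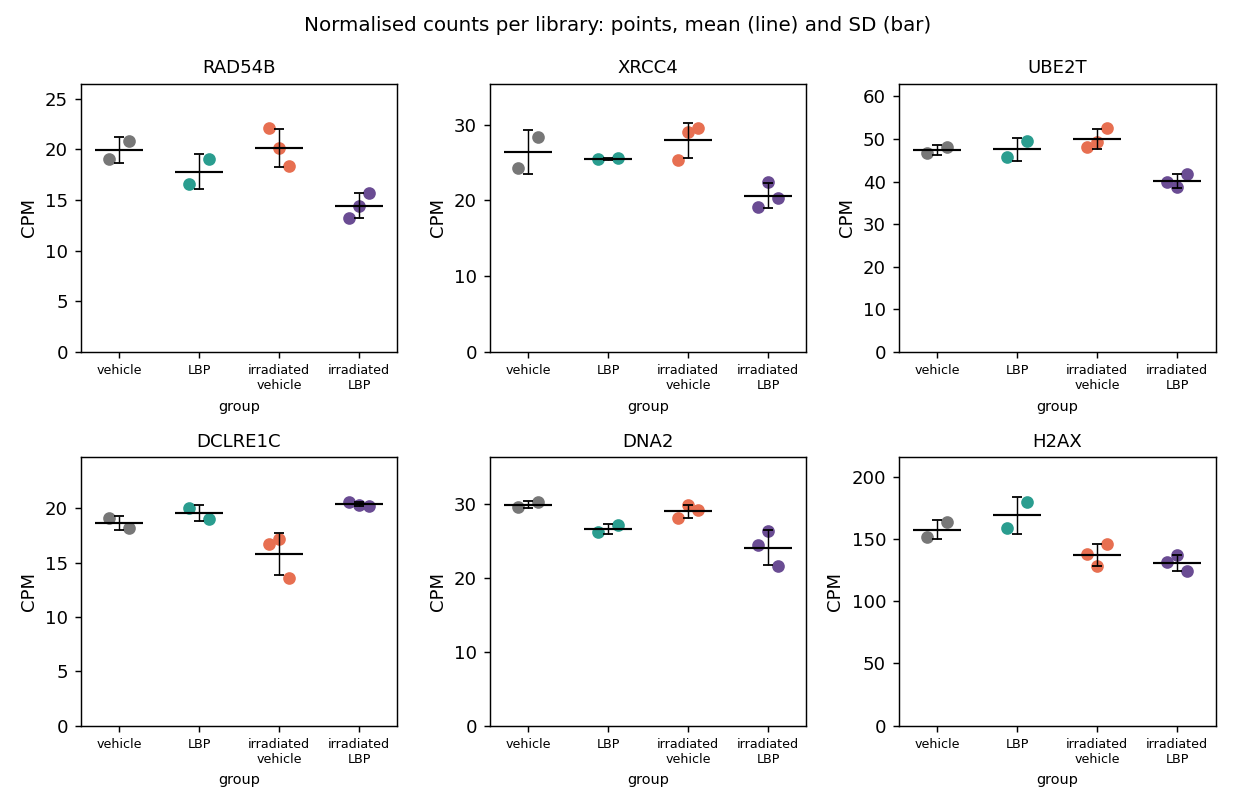
CPM in each of the 10 libraries for RAD54B, XRCC4, UBE2T, DCLRE1C, DNA2 and H2AX, with 1 point per library, a line at the group mean and a bar for the SD. RAD54B, XRCC4 and UBE2T are lowest in the irradiated LBP libraries, DCLRE1C is lowest in the irradiated vehicle libraries, and H2AX is lower in all 6 irradiated libraries.

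These calls rest on few libraries. Over 16 alternative settings RAD54B and XRCC4 were each called in 13, UBE2T in 11 and DCLRE1C in 3, and all 4 kept their direction. RAD54B lost its call without irradiated vehicle replicate 1 or 2 or irradiated LBP replicate 1 (adjusted p up to 0.0944), XRCC4 without irradiated vehicle replicate 2 or 3 or irradiated LBP replicate 1 (up to 0.1005), and UBE2T without any 1 irradiated vehicle library or irradiated LBP replicate 1 or 2 (up to 0.0933). DCLRE1C lost its call when any 1 of the 10 libraries was left out, and also with RLE factors, without the count filter or with only the groups compared (adjusted p up to 0.138). Without irradiated vehicle replicate 2, or without irradiated LBP replicate 1, 0 of the 55 were called.

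The difference between the LBP effect in irradiated and in non-irradiated cells was tested as an interaction, and 0 of the 55 passed (edgeR; 0.0135% of all features called, 2 in number; DESeq2 called 0 of the 55). At an unadjusted p under 0.05 there were 3 of the 55 (8.20% of all features). UBE2T differed by -0.32 ± 0.11, XRCC4 by -0.39 ± 0.15 and PRKDC by 0.29 ± 0.12 on the log2 scale (adjusted p = 0.596, 0.596 and 0.597). RAD54B differed by -0.32 ± 0.16 and DCLRE1C by 0.30 ± 0.15 (adjusted p = 0.619 for each). No gene's LBP effect was thus shown to depend on radiation, and only 47 of the 55 intervals lay within 1.5-fold (55.3% of all features), so the interaction was the least precisely measured contrast.

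Averaged over radiation, LBP changed 1 of the 55 genes (6.93% of all features called, 591 higher and 434 lower), with 10 of the 55 and 23.3% of all features at an unadjusted p under 0.05. RAD54B fell by 0.32 ± 0.08 on the log2 scale (adjusted p = 0.0317, edgeR), a call lost in 6 of 15 alternative settings: without vehicle replicate 1 or 2, LBP replicate 1, irradiated vehicle replicate 1 or 2 or irradiated LBP replicate 1 (adjusted p up to 0.121). In this average DESeq2 called 3 of the 55, adding XRCC4 and DNA2, and 4 genes were called with the replicate block. The nuclease and helicase DNA2, which resects ends, was at 29.6 and 30.3 CPM in vehicle, 26.2 and 27.2 CPM in LBP, 28.1, 29.9 and 29.2 CPM in irradiated vehicle and 24.4, 26.4 and 21.6 CPM in irradiated LBP libraries. Every LBP library is below every vehicle library at the same exposure. Its log2 difference was -0.22 ± 0.06 (adjusted p = 0.0616, edgeR). Radiation averaged over pretreatment changed 0 of the 55 (0.561% of all features called; 9 of the 55 and 11.5% of all features at an unadjusted p under 0.05), and DESeq2 called H2AX alone.

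None of the genes that steer a break between pathways passed the test for LBP in irradiated cells. TP53BP1, which shields ends from resection, was at 108.9, 112.9 and 105.0 against 111.0, 125.0 and 107.5 CPM (0.07 ± 0.07, adjusted p = 0.571), and RIF1, its effector, differed by 0.17 ± 0.10 (adjusted p = 0.309). BRCA1, which promotes resection, was at 82.4, 85.9 and 70.7 against 89.5, 94.4 and 84.5 CPM (0.17 ± 0.08, adjusted p = 0.234). BRCA2, a mediator of homologous recombination, was at 41.6, 45.6 and 33.5 against 52.4, 52.4 and 44.2 CPM (0.31 ± 0.12, adjusted p = 0.150), among the 2 highest differences of the 55. The BRCA1 and BRCA2 ranges overlap, and irradiated vehicle replicate 3 is the lowest library for both. In the MRN complex MRE11, a nuclease, was at 47.1, 48.4 and 42.6 against 44.8, 46.4 and 43.3 CPM, RAD50, its coiled-coil tether, at 76.2, 77.3 and 61.5 against 73.9, 75.3 and 67.5 CPM, and NBN, which recruits ATM, at 62.5, 64.6 and 59.3 against 62.3, 67.5 and 53.9 CPM. All 3 overlap, with log2 differences of -0.04 ± 0.07, 0.01 ± 0.10 and -0.02 ± 0.08 (adjusted p = 0.801, 0.967 and 0.907). ATM (0.15 ± 0.11) and ATR (0.07 ± 0.10) did not pass either, with adjusted p of 0.459 and 0.726.

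**Figure D4:**
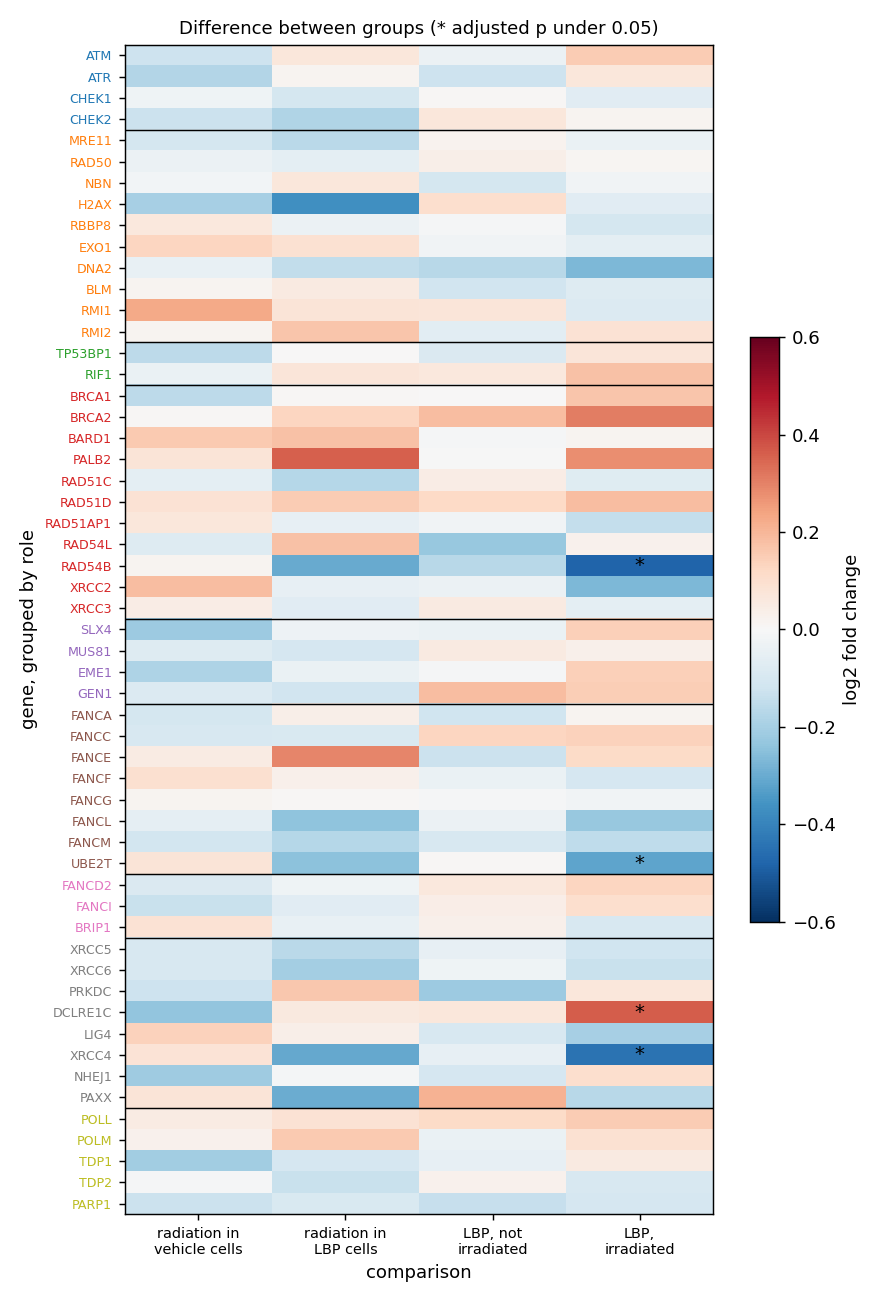
Log2 difference of each of the 55 genes as a colour (red higher, blue lower) in the 4 comparisons between groups, with genes ordered by role and an asterisk at an adjusted p under 0.05. The 4 genes so marked are in the comparison of LBP with vehicle in irradiated cells.

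Transcript length moved with the differences. Across the 55 genes, Spearman's rho of the log2 difference with the length implied by counts and FPKM was 0.45 for LBP in irradiated cells, 0.41 for radiation in LBP cells, -0.22 for radiation in vehicle cells and -0.09 for LBP in non-irradiated cells; over all features tested it was 0.12, 0.30, -0.13 and -0.24. These are descriptions across genes that share the same libraries. With LBP in irradiated cells the 14 longest genes (5986 to 15360 bases) had a median of 0.09 and the 14 shortest (923 to 2723 bases) of -0.09. Libraries of the same group differed in the same way: in irradiated vehicle replicate 3 the 14 longest genes were at -0.11 and the 14 shortest at 0.07 relative to their group means, and in irradiated LBP replicate 3 at -0.13 and -0.02. With the length trend removed from each library, the 4 genes kept their calls, RAD54B at -0.49 (adjusted p = 0.0168), XRCC4 at -0.42 (0.0203), UBE2T at -0.25 (0.0248) and DCLRE1C at 0.35 (0.0407).

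**Figure D5:**
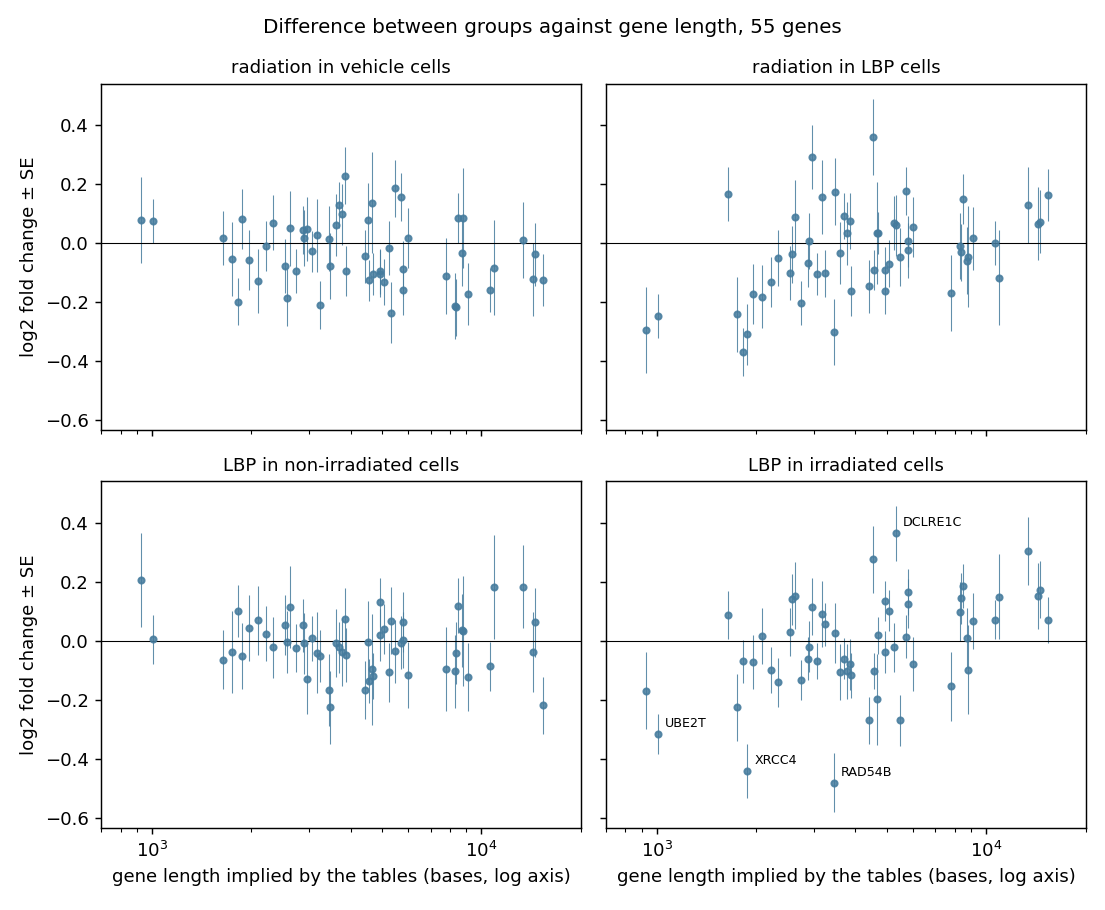
Log2 difference of each of the 55 genes against the transcript length implied by counts and FPKM (bases, log axis) in the 4 comparisons between groups, with bars of 1 SE. The longest genes lie higher than the shortest for LBP in irradiated cells (medians 0.09 and -0.09) and for radiation in LBP cells (0.01 and -0.18).

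Of the genes whose promoters were printed, the 3 called ones lie at chr10:14897359-14954432 (DCLRE1C, minus strand), chr1:202331657-202341980 (UBE2T, minus strand) and chr5:83077498-83353787 (XRCC4, plus strand) in GENCODE v29. In the comparison of LBP with vehicle in irradiated cells BLM, a helicase that dissolves double Holliday junctions, differed by -0.08 ± 0.09, EME1, a nuclease partner of MUS81, by 0.14 ± 0.09 and RAD54L, the motor protein related to RAD54B, by 0.03 ± 0.10 (adjusted p = 0.662, 0.366 and 0.908, edgeR). The 19 E2F or S phase members had a median of -0.06 in this comparison with 2 called, RAD54B and UBE2T, and the other 36 a median of 0.01 with 2 called, XRCC4 and DCLRE1C. The 20 replication genes had a median of -0.12 with 0 called and 5 at an unadjusted p under 0.05, and irradiated LBP replicate 3 was the lowest library for them (-0.18). Without that library RAD54B was at -0.55 (adjusted p = 0.0256), XRCC4 at -0.43 (0.0495) and UBE2T at -0.35 (0.0293), and DCLRE1C, at 0.37 (0.0906), was no longer called.

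Beyond the 55 genes, 75 other genes of the same pathways were listed and 74 were tested: other recombination factors, the remaining Fanconi genes, end processing enzymes and signalling adaptors. None was called by edgeR in the 4 comparisons between groups, with 9, 5, 8 and 12 of the 74 at an unadjusted p under 0.05 for radiation in vehicle cells, radiation in LBP cells, LBP in non-irradiated cells and LBP in irradiated cells. The same held for 6.91%, 13.5%, 13.5% and 21.7% of all features. Genes changed by LBP averaged over radiation included FAN1 and UIMC1. FAN1, a Fanconi-associated nuclease, rose by 0.28 ± 0.06 on the log2 scale (adjusted p = 0.0138, edgeR), with means of 25.8, 31.7, 27.4 and 33.0 CPM in vehicle, LBP, irradiated vehicle and irradiated LBP cells. UIMC1, which brings BRCA1 to ubiquitin at breaks, fell by 0.23 ± 0.06 (adjusted p = 0.0454), with means of 27.7, 22.3, 23.8 and 21.6 CPM.

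Reads of some genes may also be shared with neighbours, since the strand setting is not given in the sources used here. XRCC3 shares 77% of its exon bases with KLC1 on the opposite strand, RAD50 80% with AC116366.3 and NHEJ1 65% with AC068946.1 on the same strand, and TP53BP1 29% with TUBGCP4 on the opposite strand. Their values are uncertain to that extent. Of the called genes, XRCC4 and UBE2T had no such neighbour and DCLRE1C shared 3% with SUV39H2.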

How the data were processed

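The 55 genes and the gene lists were chosen with earlier results of these data known. Per the submitters' processing notes, reads were aligned with HISAT2 to GRCh38; what tool, strand setting and annotation produced the counts is not given in the sources used here. Whole-number counts per gene for the 10 libraries and FPKM values of the same genes were deposited by the authors; FPKM served only for levels between genes and, with counts, for implied length. Of counts from 1 to 10, 59.7% were even, so both mates of a pair may have been counted, and counting error is then larger than the counts imply.

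The test was edgeR's (4.0.16, R 4.3.3): filterByExpr (minimum count 10), TMM, glmQLFit and glmQLFTest with 1 mean per group over all 10 libraries (6 residual degrees of freedom, fitted coefficient of variation 11.5%), Benjamini-Hochberg adjustment over 14799 features and calls under 0.05. Every adjusted p is from this test unless DESeq2 (1.42.0) is named. Standard errors come from the log2 difference and its F value. Replicates of a group differed by more than counting noise (chi-square per degree of freedom 10.7 to 36.8) and were all kept as separate samples. Alternatives were DESeq2, RLE factors, removal of a length trend, no count filter, only the groups compared, a replicate block and each library left out. Values per library are given for called genes, the 2 highest and 2 lowest differences of each comparison and 17 genes taken for role, in at least 1 comparison each. BARD1, BLM, DNA2, EME1, LIG4, RIF1 and TDP1 were added after their values were seen. Values of some genes are not reported here.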

Additional observations from a re-analysis of the deposited data

How the results depend on the processing

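Medians over the 55 genes moved by less than the spread between replicates in every alternative run. DESeq2 called 129 features for radiation in vehicle cells, 184 for radiation in LBP cells, 374 and 1228 for LBP in non-irradiated and irradiated cells, 16 for the interaction and 211 for radiation averaged. With only the groups compared (not run for the interaction and the averages) these were 109, 10, 278 and 409. With the length trend removed 39 were called for radiation in LBP cells; without the count filter 45 there, 188 for LBP in non-irradiated cells and 7 for the interaction. With 1 library left out, features called ranged from 25 to 75 and 8 to 51 for radiation in vehicle and LBP cells, 38 to 175 and 176 to 722 for LBP in non-irradiated and irradiated cells, 0 to 5 for the interaction, 59 to 177 for radiation averaged and 309 to 1141 for LBP averaged.

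Of the 55 genes, 1 (H2AX) was called by DESeq2 for radiation in LBP cells and, for radiation averaged, 1 (H2AX) by DESeq2, with the length trend removed and without the count filter, and 0 to 1 with 1 library left out. For LBP in irradiated cells 0 to 3 were called with 1 library left out. For LBP averaged 3 were called by DESeq2, 4 with the length trend removed and 0 to 3 with 1 library left out. Both the length trend and the block added BRCA2 (0.25 in each; adjusted p = 0.0495 and 0.0434). The cause was not tested. Same-numbered libraries of different groups correlated at -0.16 to 0.11, with 2 of 13 pairs over 0.1. Differently numbered ones correlated at -0.14 to 0.16, with 2 of 24 pairs over 0.1. The vehicle and LBP groups hold 2 libraries each, whose deviations from the group mean mirror each other. The 13 values are therefore not independent and cannot decide whether equal numbers mean paired libraries. The replicate block called 4 of the 55 genes for LBP averaged and 1 feature for the interaction. Of 3052 alternative values of the 28 genes named by the rule, 0 turned a called direction, 30 lost and 13 gained a call, and 150 changed sign while not called. DNA2, outside these 28, gained its call in 2 settings for LBP in irradiated cells and in 3 for LBP averaged.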
